A study of Mus musculus with 4 samples.

Results

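Astrocytes clear potassium and water from around active neurons, and 7 genes of that work were examined for SOX2 on chromatin of the mouse cortex. They are Kcnj10 and Kcnj16 (potassium channels), Atp1b2 (a sodium pump subunit), Aqp4 (a water channel), Mlc1 and Hepacam (2 membrane proteins of astrocyte junctions) and Slc4a4 (a bicarbonate transporter). Members were all SOX2 peaks whose centre lay inside the RefSeq span of 1 of these genes or within 50 kb of it. IP libraries 1, 2 and 3 each had 40 such peaks, of 17730, 17628 and 15891 in all. Peaks that overlapped across libraries were merged, which gave 54 regions at these genes of 27083 in the series, and a region with peaks of all 3 libraries is called reproducible here. The genes were named with earlier results of these data known, so their counts are given beside those of all genes and without a test of the list.

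The chromatin came from the cortex of male wild-type C57BL/6 mice aged 2 months, with 0.3 g of tissue as the stated amount. SOX2 was pulled down with a rabbit polyclonal antibody in 3 immunoprecipitated (IP) libraries, and 1 input library of unselected chromatin served as control. The libraries are chromatin immunoprecipitation followed by sequencing (ChIP-seq), in which DNA bound by a protein is enriched and counted. All 4 samples also carry a label that calls them transduced with SOX2, although the protocol describes tissue of wild-type animals. There is 1 condition, with no injured sample and none without SOX2. Nothing in the labels tells if each IP library had its own animals, so the spread between libraries may be technical. The IP libraries held between 32492927 and 41875666 tags. Cortex holds many cell types and no RNA was measured, so SOX2 in more cells and more SOX2 per cell cannot be told apart, nor can the cell type be named from these files.

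Neurons release potassium when they fire, and astrocytes take it up through Kir4.1 channels, made by Kcnj10, which can pair with Kir5.1, made by Kcnj16. The sodium pump moves potassium in against its gradient, and Atp1b2 makes the beta subunit that glia use. Aqp4 lets water pass at the astrocyte end-feet that wrap blood vessels. MLC1 and GlialCAM, the product of Hepacam, form a complex at astrocyte contacts, and changes in either gene cause a leukodystrophy with swollen white matter in people. Slc4a4 makes a sodium bicarbonate cotransporter that sets pH inside and outside the cell. SOX2 binds DNA through a high mobility group domain and is made by astrocytes as well as by neural stem cells.

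Regions lay at or just before a listed transcription start in 3 of the genes. RefSeq promoter windows, from 250 bases before to 50 after a start on the GRCm38.p6 assembly, were matched for 5 of the 7 genes, with 9 windows in all. Of the windows of Kcnj16, only the one that holds chr11:110997237-110997486 overlapped a reproducible region. The window of Hepacam also overlapped one, and that of Mlc1 overlapped a region of 2 libraries. Over all 17274 protein-coding genes with a window, 8.39% had one that overlapped a reproducible region and 22.4% one that overlapped a region of any library. The 250 bases before each of these 3 starts are shown because peaks cover part of them. They run 5′ to 3′ along the gene, with the bases inside the SOX2 region in capitals. Those of Kcnj16 are at chr11:110997237-110997486 on the plus strand, those of Hepacam at chr9:37367356-37367605 on the plus strand and those of Mlc1 at chr15:88978554-88978803 on the minus strand.
Kcnj16: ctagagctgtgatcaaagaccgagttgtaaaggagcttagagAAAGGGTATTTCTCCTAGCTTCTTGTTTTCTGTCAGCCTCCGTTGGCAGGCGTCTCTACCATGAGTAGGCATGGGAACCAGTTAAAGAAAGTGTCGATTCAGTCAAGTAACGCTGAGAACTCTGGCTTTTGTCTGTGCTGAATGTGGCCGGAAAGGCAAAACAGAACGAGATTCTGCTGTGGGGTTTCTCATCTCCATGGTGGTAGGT
Hepacam: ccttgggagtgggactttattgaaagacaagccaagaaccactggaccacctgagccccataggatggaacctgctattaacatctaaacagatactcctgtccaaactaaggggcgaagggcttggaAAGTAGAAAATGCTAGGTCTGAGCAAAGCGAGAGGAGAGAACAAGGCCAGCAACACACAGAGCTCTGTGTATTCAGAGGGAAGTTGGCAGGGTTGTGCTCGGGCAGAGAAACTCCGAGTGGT
Mlc1: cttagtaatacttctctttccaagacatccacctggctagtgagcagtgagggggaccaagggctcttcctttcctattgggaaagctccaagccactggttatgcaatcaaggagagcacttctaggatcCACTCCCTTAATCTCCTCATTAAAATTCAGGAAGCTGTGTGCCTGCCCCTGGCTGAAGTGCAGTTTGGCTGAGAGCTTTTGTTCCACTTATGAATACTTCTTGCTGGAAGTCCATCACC

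The SOX2 region covered 208 of the printed bases at Kcnj16, 122 at Hepacam and 119 at Mlc1. The printed stretches had a GC content of 47.6%, 50.4% and 48.0%, against a median of 52.4% over the same 250 bases of all 32851 listed windows. In the 300-base windows 7 short words were searched on both strands. The SOX-type words ACAATG and AACAAT, which can overlap each other, were in none of the 9 windows, against 12.6% and 10.7% of all windows. The SOX-type word ACAAAG was in the windows of Kcnj10 and Hepacam, 2 of 9 against 18.7% of all windows. At Hepacam it began at the start itself, inside the SOX2 region, and at Kcnj10 no region overlapped it. TTGGCA, a short nuclear factor I word, was in 3 of the 9 windows against 14.1% of all. It lay inside the SOX2 region at Kcnj16, 166 bases before the start, and at Hepacam, 39 bases before it, and outside any region in a further window of Kcnj16. CCAAT was found in 4 of 9 windows (37.4% of all), GTTGCC, a short RFX word, in 1 (12.5%), and the octamer ATGCAAAT in none (1.74%). These are matches of letters in a window and not bound sites, and the sequence under the other regions was not analysed here.

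**Figure D1:**
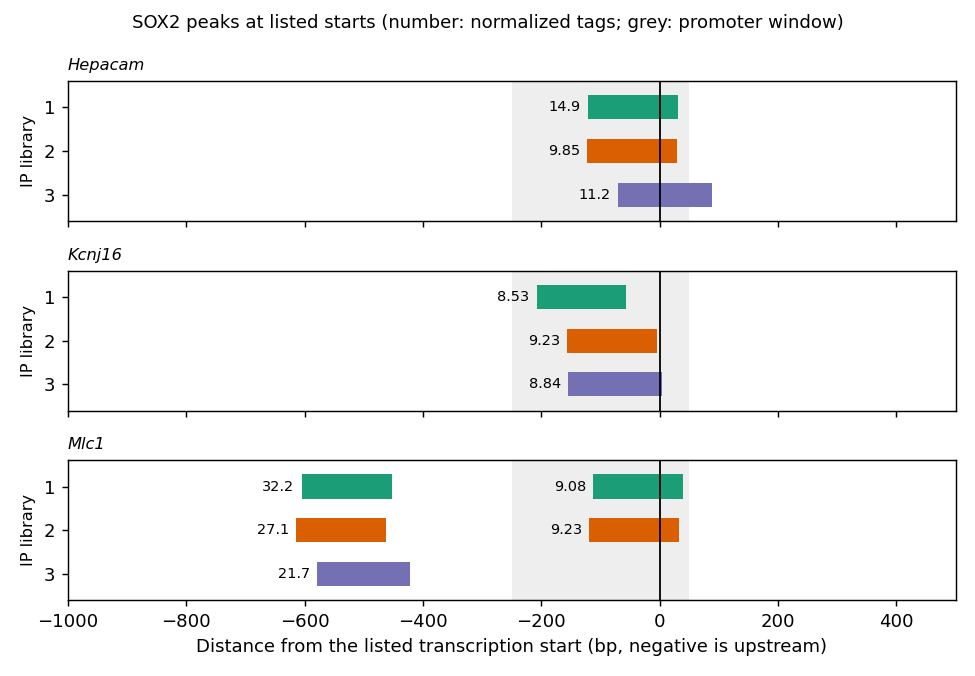
SOX2 peaks of each IP library around the listed starts of Hepacam, Kcnj16 and Mlc1, with distance from the start in bp on the x axis and the normalized tags of each peak as a number beside its bar. Peaks of all 3 libraries span the start of Hepacam and begin at most 208 bp before that of Kcnj16, while at Mlc1 the start carries peaks of libraries 1 and 2 only and the stronger peaks, 21.7 to 32.2 normalized tags, lie upstream.

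All 7 genes had a reproducible region inside or within 50 kb of the span, against 46.6% of 21631 protein-coding genes and 51.0% of the 15653 genes whose span was within the range of these 7 (6251 to 445799 bp). All 7 had one inside the span itself, against 14.8% of all genes and 18.2% of those within that range of span. The genes in that range were not matched in length to these 7. All 7 were thereby also the nearest protein-coding gene to at least 1 reproducible region, against 22.9% of all genes. A region inside a gene has that gene as nearest, so this count follows from the one before and adds nothing to it. In total 28 reproducible regions lay in the windows, with 10 more regions found in 2 libraries and 16 in 1 library. Of the 28, 16 were inside the member gene, 3 were outside it with the member as the nearest protein-coding gene, and 9 had another protein-coding gene nearer. The median gene of the 7 had 3 reproducible regions, with a range of 1 to 7, against a median of 1 among the 10075 genes that had any. Both counts include regions nearer to another gene, among them 5 of the 6 at Atp1b2 and 3 of the 6 at Kcnj10. The 10075 genes were not limited to the range of span of the 7. Neighbouring genes share windows, so genes are not independent in these counts.

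Strength is expressed below as normalized tags, which the authors scaled to 10000000 tags per library, and the strongest peak of a library stands for the region. The 28 reproducible regions had a median of 10.6 normalized tags (4.52 to 32.0), against 7.63 over all 9333 reproducible regions. Their median enrichment over the input was 24.3-fold, each region averaged over its libraries first, against 15.3-fold over all. Of all 54 regions in the windows, 51.9% were reproducible, against 34.5% in the series. This difference was not tested. Slc4a4 gave 19 of the 54 regions and Kcnj10 gave 11, so a few genes weigh heavily in the share. The 26 regions found in 1 or 2 libraries had a median of 5.19 and a highest value of 11.2 normalized tags.

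**Figure D2:**
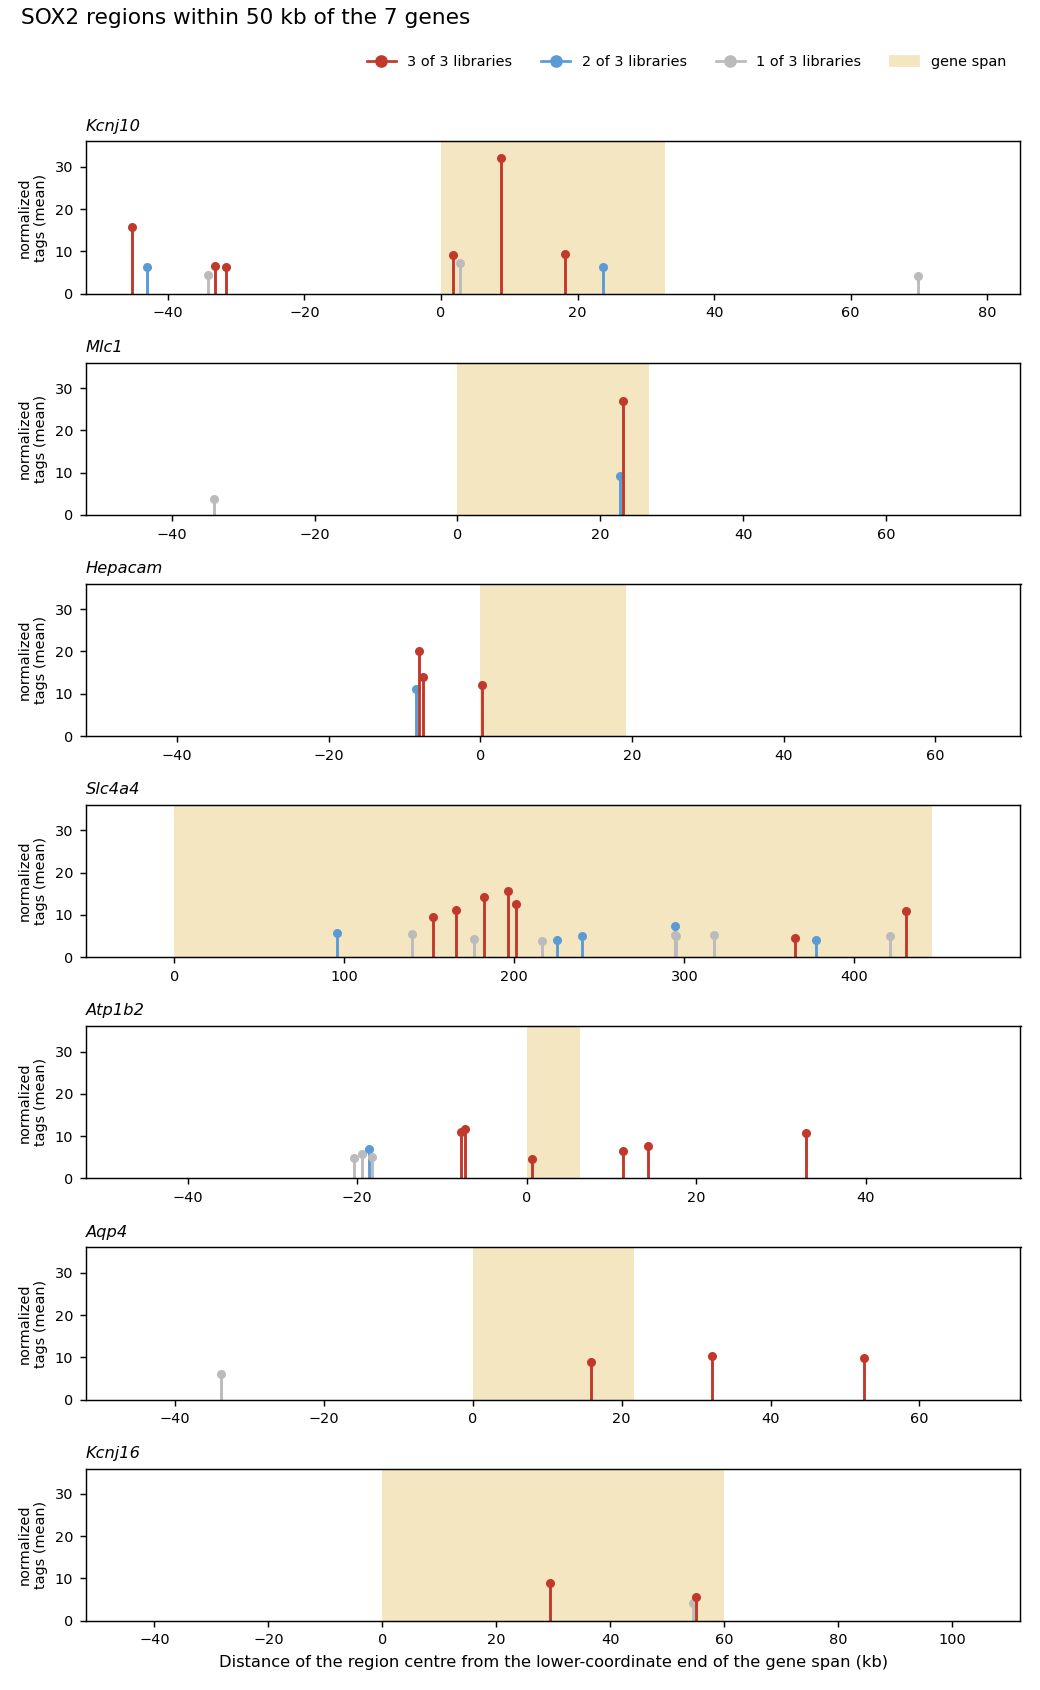
Regions in the window of each gene, with the distance of the region centre from the lower-coordinate end of the gene span in kb on the x axis (each panel has its own range) and the mean normalized tags over the libraries that called it on the y axis. Red stems mark regions of 3 libraries, blue of 2 and grey of 1, the shaded band is the gene span, and the 2 tallest stems are at Kcnj10 (32.0) and Mlc1 (27.0).

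Kcnj10, the Kir4.1 channel gene on chromosome 1 from 172341210 to 172374085, had the strongest region of the 7. It lay inside the gene at chr1:172349953-172350132, 8.83 kb past the listed start, with 35.2, 37.5 and 23.4 normalized tags in IP libraries 1, 2 and 3. These correspond to 128, 122 and 98 tags. Library 3 was low and libraries 1 and 2 were alike, and the mean was 32.0 ± 7.56 (SD, n = 3), rank 38 of 9333. The authors' folds over the input were 232, 247 and 154, all with the input at its floor of 0.5 tags, so they depend on that floor. The tags in this peak were also the most sharply placed among the reproducible regions of the 7 genes, with a mean focus ratio (the authors' share of tags placed as the peak centre predicts) of 0.877 against a median of 0.742 over all reproducible regions.

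Another 2 reproducible regions lay inside Kcnj10. The one at chr1:172359208-172359457, 18.1 kb past the start, held 10.5, 9.54 and 8.12 normalized tags. The one at chr1:172342822-172343083, 1.74 kb past the start, held 8.53, 9.54 and 9.07. Both were under the lowest library of the strongest region, and their ranges overlapped each other. Regions of fewer libraries lay at 2.71 kb past the start (library 1, 7.16 normalized tags) and at 23.7 kb (libraries 1 and 3, 6.61 and 6.21).

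The other 3 reproducible regions of the Kcnj10 window were nearer to other genes. Of these, 2 lay 31.6 and 33.1 kb from Kcnj10 and 2.72 and 4.26 kb from Igsf8, an immunoglobulin superfamily gene, with 6.23 ± 1.09 and 6.48 ± 0.862 normalized tags. Weaker regions of 1 library in the window lay nearest to Igsf8 (4.40 in library 1) and Pigm (4.30 in library 3).

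Kcnj16, the Kir5.1 gene on chromosome 11 from 110968033 to 111027968, had 2 reproducible regions, both inside the gene. The stronger, at chr11:110997279-110997491, was the one printed above, centred 0.102 kb before the second of 4 listed starts. It held 8.53, 9.23 and 8.84 normalized tags, a mean of 8.87 ± 0.351 (SD, n = 3), and its 3 values lay close together. The other, at chr11:111022930-111023160, lay 0.815 kb before the fourth listed start with 6.61, 4.00 and 6.21, and library 2 was low there. A region of library 2 alone, with 4.31 normalized tags, lay 0.516 kb from it. The strongest regions of Kcnj10 and Kcnj16 did not overlap in their values, with 23.4 as the lowest library of the former and 9.23 as the highest of the latter.

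Atp1b2, the pump subunit gene on chromosome 11 from 69599728 to 69605978, had 6 reproducible regions in its window, of which 1 was its own. That region, inside the gene at chr11:69600187-69600479, held 4.95, 4.31 and 4.30 normalized tags (mean 4.52 ± 0.372), and 97.0% of all reproducible regions were stronger. Between Trp53, the p53 gene, and Atp1b2 lay a pair with centres 0.45 kb apart. The region at chr11:69592382-69592564 held 16.8, 11.1 and 7.16 (mean 11.7 ± 4.85) and that at chr11:69591932-69592114 held 10.2, 13.5 and 9.55 (mean 11.1 ± 2.12). They lay 0.6 and 0.15 kb outside Trp53 and 7.25 and 7.71 kb outside Atp1b2, and library 1 was highest in the first and library 2 in the second. Another 2 lay inside Shbg, the sex hormone-binding globulin gene (6.38 ± 1.50 and 7.65 ± 1.59), and 1 lay 0.285 kb outside Fxr2, an RNA-binding protein gene (10.8 ± 4.01). A further 4 regions of fewer libraries lay in or at Wrap53 and Trp53, with 4.92 to 6.94 normalized tags.

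Aqp4, the water channel gene on chromosome 18 from 15389394 to 15410982, had 3 reproducible regions. The one inside the gene, from 15405203 to 15405406, held 9.08, 9.23 and 8.60 normalized tags (mean 8.97 ± 0.329). The strongest, from 15421489 to 15421648 and 10.6 kb outside the gene, held 11.6, 9.85 and 9.55 (mean 10.3 ± 1.11), with the pseudogene Gm7650 at 6.20 kb as a nearer neighbour than Aqp4. The third, from 15441822 to 15441991, held 12.9, 7.69 and 8.84 (mean 9.81 ± 2.74), and Chst9, a sulfotransferase gene, was nearer at 9.87 kb than Aqp4 at 30.9 kb. The values of the region inside the gene all lay below those of the strongest, and the range of the third overlapped both. A region of library 3 alone (5.97 normalized tags) lay 33.9 kb outside Aqp4, inside the long non-coding RNA gene A830021F12Rik.

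Mlc1, on chromosome 15 from 88955884 to 88982693, had a single reproducible region, and it was the second strongest of all 28. At chr15:88978974-88979167 it lay inside the span and 0.518 kb upstream of the listed start, with 32.2, 27.1 and 21.7 normalized tags, a mean of 27.0 ± 5.25 (SD, n = 3) and rank 91 of 9333. Library 1 was highest and library 3 lowest, from 117, 88 and 91 tags. The authors' folds over the input were 106, 89.2 and 71.6. The weaker region at the start, centred 0.478 kb away, held 9.08 normalized tags in library 1 and 9.23 in library 2, at 7.48-fold and 7.60-fold, and was not called in library 3. A region of library 3 alone, with 3.82, lay inside Ttll8, 34.1 kb from Mlc1.

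Hepacam, on chromosome 9 from 37367356 to 37386572, had 3 reproducible regions, all with Hepacam as the nearest gene. The strongest, at chr9:37359157-37359347, lay 8.35 kb upstream of the listed start with 20.4, 21.9 and 18.1 normalized tags, a mean of 20.1 ± 1.91 (SD, n = 3), and its 3 libraries were alike. Beside it, at 0.514 kb, chr9:37359644-37359888 held 15.7, 13.8 and 12.2 (mean 13.9 ± 1.75), below every value of the first. On its other side a region of libraries 2 and 3 held 11.4 and 11.0, so that 3 regions lay within 1.14 kb. The region at the start, chr9:37367484-37367694, held 14.9, 9.85 and 11.2 (mean 12.0 ± 2.61), and its range overlapped that of the second.

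Slc4a4, the bicarbonate transporter gene on chromosome 5 from 88793858 to 89239656, is the longest of the 7 and had the most reproducible regions, 7, all inside the gene. The 2 strongest were at chr5:88990297-88990478, with 19.5, 12.9 and 14.6 normalized tags (mean 15.7 ± 3.43), and at chr5:88975744-88976014, with 17.1, 12.9 and 12.4 (mean 14.1 ± 2.58). Library 1 was highest in both, and their ranges overlapped. Together with 3 more regions of 9.50 to 12.6 normalized tags they lay within 48.5 kb, 10.9% of the gene span, between the 2 listed starts, a grouping chosen after its positions were seen. The other 2 lay far downstream with 4.54 ± 0.690 and 11.0 ± 1.71, the latter at chr5:89223995-89224171, where the long non-coding RNA gene Gm35855 overlaps Slc4a4. Neither listed promoter window of Slc4a4 overlapped a region, and the region nearest to either start, in libraries 1 and 2 with 5.23 and 6.46, lay 2.27 kb past the first. Slc4a4 also had 12 regions of 1 or 2 libraries, with 3.85 to 7.28 normalized tags.

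By their strongest region the genes stood in the order Kcnj10, Mlc1, Hepacam, Slc4a4, Atp1b2, Aqp4 and Kcnj16. The values of the 3 libraries overlapped between each pair of neighbours in this order except Aqp4 (lowest 9.55) and Kcnj16 (highest 9.23). Within a library, the first 4 genes held the same places in all 3 libraries, and Atp1b2 took the fifth place in libraries 1 and 2 and the last in library 3. With only regions whose nearest protein-coding gene was the member, Atp1b2 fell to 4.52 normalized tags and last place. Of the 7 genes, 6 had a region of at least 10 normalized tags and 3 one of at least 20, against 17.3% and 2.70% of all genes, at thresholds chosen after the values were seen.

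**Figure D3:**
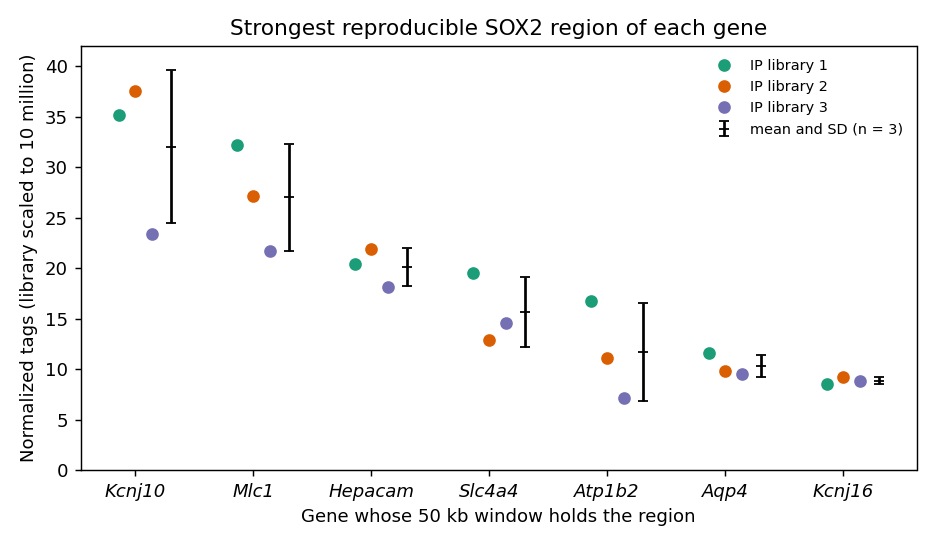
Normalized tags of the strongest reproducible region in the window of each gene, with 1 point per IP library and the mean and SD (n = 3) as a black bar. Kcnj10 and Mlc1 lie highest, at 21.7 to 37.5, and the region plotted for Atp1b2, which lies nearest to Trp53, has the widest spread relative to its mean, from 7.16 to 16.8.

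The 3 libraries were compared at each region with an exact multinomial test of its tags against the library totals, with Benjamini-Hochberg adjustment over all 9333 reproducible regions. None of the 28 passed an adjusted p of 0.05, and in the series 0.0107% of regions passed. At an unadjusted p under 0.05 there were 4 of the 28, against 1095 of the 9333. The smallest values were at the Atp1b2 window region next to Trp53 (adjusted p = 0.0824, exact multinomial test) and at the strongest Kcnj10 region (adjusted p = 0.0927, exact multinomial test), and both were lowest in library 3. Library 3 was the lowest of the 3 at 18 of the 28 regions. The same count was not made over all 9333, so it cannot be called particular to these genes. The median over all peaks of library 3 was also the lowest, 5.25 normalized tags against 6.06 and 6.16. A region had to pass the caller's threshold in every library to be tested, which narrows the spread, so a p above the threshold does not show that the libraries were equal.

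**Figure D4:**
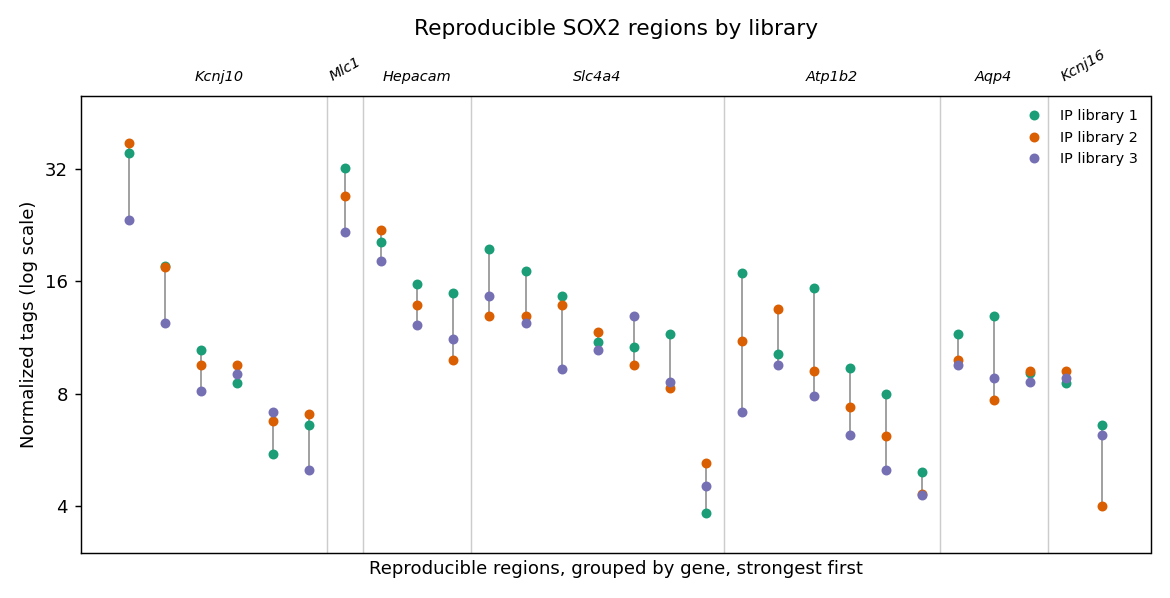
Normalized tags (log scale) of the 28 reproducible regions in the 3 IP libraries, grouped by gene and ordered by strength within it, with a grey line from the lowest to the highest library. Library 3 is the lowest point at 18 of the 28 regions, a count not made over all reproducible regions, and the widest gaps are in the Atp1b2 window.

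Other genes of the same work, from lists set for this comparison, differed in how many had a reproducible region within 50 kb, against the 46.6% of all genes. The dystroglycan complex and its partners, which anchor AQP4 at end-feet, had one at 7 of 8 genes, led by Dtna (dystrobrevin alpha, 23.5 ± 4.91 normalized tags). Agrn, the agrin gene, had none. Sodium pump subunits and FXYD regulators had one at 3 of 8, among them Fxyd1 and Fxyd7, which share a region nearest to Fxyd3 (9.0 ± 2.48). Other potassium channel genes had one at 8 of 8, led by Kcnj9, whose strongest is the Kcnj10 region, and Kcnk1 (29.7 ± 1.35, 42.7 kb outside the gene). The single region of Kcnj2, a further Kir channel gene, is the weaker Kcnj16 region. Other aquaporin genes had one at 5 of 7, led by Aqp9 (9.80 ± 0.611) and Aqp8 (8.79 ± 1.48, nearest to Zkscan2), with none at Aqp5 and Aqp7. Genes listed together for bicarbonate, chloride, proton and volume regulation, not all of them transporters or channels of these, had one at 8 of 12. They were led by Lrrc8a (16.9 ± 3.49, nearest to Phyhd1), the volume-regulated anion channel gene, and Slc8a1 (12.8 ± 3.16), a sodium-calcium exchanger gene. Among cell type markers, 6 of 6 astrocyte, 3 of 6 neuron, 2 of 4 oligodendrocyte, 3 of 4 microglia and 2 of 3 endothelial genes had one, and inside the gene span 4, 2, 0, 1 and 1 did.

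For each gene, the gene most like it was taken as the one with the same number of reproducible regions within 50 kb and the smallest Euclidean distance between log2 normalized tags of the strongest region over the 3 libraries. For Kcnj10 this was Rfx4, a transcription factor gene, with 33.0, 30.2 and 23.4 normalized tags and a distance of 0.326, among 82 candidates. For Mlc1 it was Sh3bp2 (29.2, 25.9 and 22.0, distance 0.157), for Slc4a4 Rab11fip4 (21.5, 13.5 and 15.0, distance 0.160) and for Atp1b2 Clptm1 (17.3, 11.4 and 8.12, distance 0.190). The other 3 genes each had a tie of 2 genes with the same values. These were Fanci and Polg for Hepacam (distance 0.0949), Chka and Tcirg1 for Aqp4 (0.0744) and Gm52310 and Zdhhc14 for Kcnj16 (0.0397). With up to 5436 candidates and 3 values each, such likeness is a description only.

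The windows end at 50 kb. Among the reproducible regions described here the farthest inside lay 33.1 kb from Kcnj10, and the first outside lay 65.4 kb from Atp1b2 with 10.5 ± 1.75 normalized tags, nearest to Eif4a1. Up to 100 kb, Atp1b2 had another at 79.9 kb (14.4 ± 2.00), Aqp4 one at 80.4 kb (7.90 ± 0.627) and Mlc1 one at 93.6 kb (5.61 ± 1.15), while Kcnj10, Kcnj16, Hepacam and Slc4a4 had no more.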

How the data were processed

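SOX2 ChIP-seq of mouse cortex was analysed in 3 IP libraries, with 1 input that enters through their tables. Alignment and peak tools were Bowtie 1.0.0 and HOMER 4.7 on mm10, per the submitters' processing notes. The authors ran findPeaks in factor mode on each library, per the file headers, at 4-fold over the input and over the surrounding 10000 bp, a Poisson p-value of 0.0001 and a false discovery rate of 0.001. Depth was 36330529, 32492927 and 41875666 tags, and a peak needed 14, 13 and 16. The deposited signal is normalized tags, the deposited count is the tags of a peak (library 2; scaled in the others), and the deposited ratio is the fold over the input, set to 0.5 tags where lower. The deposited score caps tags per bp, and the deposited fraction is the focus ratio.

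Peaks sharing 1 bp or more were joined into regions, chains included. Gene spans came from RefSeq GRCm38.p6 (coordinates of mm10), without exons, so exon and intron positions were not analysed here, and 1 reproducible region on chromosome Y was left out. Tags per peak were the normalized tags times the library total over 10000000, rounded. The exact multinomial test was checked on simulated tags. The members and lists were chosen with earlier results of these data known. Named were the 7 genes, their 2 strongest regions in full, nearer genes, up to 2 leading members of each list, those without a region where 3 or fewer, and the most alike gene. Some results that fall under this rule are counted but not reported here. Alternatives changed the window, overlap, peaks, libraries, scaling and measure of strength. Scripts ran in Python 3.11.15 with scipy 1.17.1, numpy 2.4.6, matplotlib 3.10.9 and pandas 2.3.3.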

Additional observations from a re-analysis of the deposited data

How the results depend on the processing

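All 7 genes kept a reproducible region under each of the 12 alternatives run. Each had one inside its span, so changes of window, or a need of only 2 libraries, could not lose one. Stricter settings were an overlap of 0.5 of both lengths, peaks of at least 8-fold over the input, and peaks at or above each library's median. Under these 3, 43.3%, 32.9% and 32.1% of all genes had a region. Their 28 reproducible regions became 16 with a window of 5 kb and 16 inside the spans only, where the regions with another gene nearer went from 9 to 0, and these were 4 with a window of 20 kb. Leaving out 1 library in turn gave 30 to 33 regions, 9 to 10 with another gene nearer, and a share found in all remaining libraries of 60.0% to 70.2%. By fold over the input only 3 of the 7 genes kept their place in the order, with Atp1b2 in the third place at 76.9-fold, a region where the input is at its floor. Of 91 values of strongest regions under alternatives, 84 moved by less than 1 SD over libraries. The other 7 were Atp1b2 at 4.52 with nearest regions only, with 5 kb and inside the span, and, with 5 kb and inside the span, Aqp4 at 8.97 and Hepacam at 12.0. The exact multinomial test called 0 of the member regions under each of its 6 alternatives, with 1 to 5 at an unadjusted p under 0.05. Over all regions it called 1, and 13 with tags summed over a region's peaks, 7 with an overlap of 0.5 of both lengths, 0 with totals taken from the regions, and 0 to 19 with 1 library left out. Weak regions lie near the threshold of 13 to 16 tags. Not every region missing from 1 library was weak, as that at the Mlc1 start held 33 and 30 tags in libraries 1 and 2. Library 3, which lacked it, was the deepest (41875666 tags) and had the fewest peaks (15891). Whether depth bears on which peaks are missing was not tested. No paired analysis was possible because the 3 IP libraries form 1 condition and the input is a single sample.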
